A study of Homo sapiens with 3 samples.

Results

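The PHLDA family consists of 3 small genes, PHLDA1, PHLDA2 and PHLDA3, taken by gene name from a table of 63241 genes. The table comes from ribosome profiling (Ribo-seq), which sequences the stretches of mRNA that ribosomes shield from nuclease, so a gene's footprint count reflects how much of its mRNA ribosomes occupied. The family was chosen by the strong fall of PHLDA3 in both mutant groups against WT, so those log2 fold changes are given below as a description, without a test. Its paralogs came in by name, to ask whether the fall was shared. All 3 genes passed the filter on low counts. The cells were HEK293T, a line from human embryonic kidney in which SV40 large T antigen, which binds p53, is present in every group. A p53 construct was added to them, either wild type (WT) or with the substitution G245S or R273H, each a frequent tumour mutation of the part of p53 that contacts DNA. Each group had 3 libraries, from 3 dishes of 10 cm (n = 3 dishes per group throughout). All dishes received cycloheximide for 2 min, a drug that holds ribosomes in place, and micrococcal nuclease (3 U per μg RNA, 30 min) then trimmed the unprotected RNA of the lysates. Per the study's methods the lines were made by lentiviral delivery and puromycin selection, whereas the labels also speak of transient expression and name the WT construct in the treatment field of the mutants; groups were taken from the sample titles. The dishes of a group were pooled at reverse transcription, so a difference between groups cannot be told apart from a difference between pools, and p-values measure the spread of dishes within a pool. Cells without a p53 construct were not analysed here.

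Members of this family are built around a pleckstrin homology domain, a fold that binds phosphoinositide lipids of the inner membrane leaflet. PHLDA3 is a direct transcriptional target of p53. It consists of little more than that domain, and it competes with the kinase AKT for the lipids that recruit AKT to the membrane, so it restrains AKT signalling. PHLDA2 (also IPL or TSSC3) is an imprinted gene expressed from the maternal allele that limits growth of the placenta. PHLDA1 (also TDAG51) carries glutamine- and proline-rich stretches beside its domain and is known as a gene induced by growth factor signalling and by cell stress.

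The members lie on different chromosomes and differ in length. In GENCODE v44 (GRCh38), PHLDA1 (ENSG00000139289) spans chr12:76025447-76031776, PHLDA2 (ENSG00000181649) chr11:2928273-2929420 and PHLDA3 (ENSG00000174307) chr1:201464278-201469237. All lie on the minus strand. The coding region has 1203 nt (401 codons) in PHLDA1, 456 nt (152 codons) in PHLDA2 and 381 nt (127 codons) in PHLDA3. Among 13615 protein-coding genes tested, PHLDA2 and PHLDA3 were at the 8.09th and 5.39th percentile of coding length, and PHLDA1 at the 41.7th. The 3 coding regions were GC-rich, at 67.4%, 69.1% and 68.8%, which are the 95.4th, 97.3rd and 96.9th percentiles.

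Because footprints are short, counts of paralogs are separable only where the coding sequences differ. A local nucleotide alignment of PHLDA2 and PHLDA3 covered 326 columns, of which 69.0% were identical. PHLDA1 aligned to PHLDA2 over 153 columns at 74.5% identity and to PHLDA3 over 193 columns at 74.1%. The longest run of identical bases was 28 between PHLDA1 and PHLDA3, 18 between PHLDA2 and PHLDA3 and 17 between PHLDA1 and PHLDA2. The PHLDA1 and PHLDA3 run is shown because it is the longest in the family; 30 coding bases are printed 5′ to 3′ on the minus strand, from chr12:76031260-76031289 for PHLDA1 and chr1:201468728-201468757 for PHLDA3, with the shared run in capitals.
PHLDA1: gAAGGAGGGCGTGCTGGAGAAGCGCAGCGa
PHLDA3: cAAGGAGGGCGTGCTGGAGAAGCGCAGCGg
The run covers bases 454 to 481 of the PHLDA1 coding region and bases 31 to 58 of that of PHLDA3, near the start of the latter. The longest run shared by PHLDA2 and PHLDA3 covers coding bases 235 to 252 and 244 to 261, and is shown in capitals within 30 bases from chr11:2929107-2929136 and chr1:201468520-201468549 on the minus strand.
PHLDA2: cacaagGAGATCGACTTCCGCTGCgcgggc
PHLDA3: ggcggcGAGATCGACTTCCGCTGCcccctg
Of the 354 windows of 28 bases in the PHLDA3 coding region, 1 also occurred in the transcripts of another gene on the same strand, and that gene was PHLDA1. None of the 429 windows of PHLDA2 occurred elsewhere. In PHLDA1, 18 of 1176 windows (1.53%) did, in transcripts of 34 other genes. On the opposite strand 470 windows of PHLDA1 (40.0%) matched transcripts of 6 genes, PHLDA1-AS1 among them, and 1 of PHLDA3 matched PHLDA1-AS1; whether counting used strand is not given in the sources used here. The deposited values are expected counts, in which a read that maps to several genes is shared out by an estimate, so ambiguous reads leave values that are not whole. For PHLDA1 the value was within 0.1 of a whole number in 9 of 9 libraries, and for PHLDA2 and PHLDA3 in 7 of 9 each, with a largest distance of 0.28 of a read. It was exactly whole in 1 of 9 libraries for PHLDA1 and in 6 of 9 for each of the others. A pair of lncRNA genes overlaps the family. PHLDA1-AS1, on the other strand of PHLDA1, had a highest count of 1 in any library, and ENSG00000224818, on the strand of PHLDA3, was at 0 in every library.

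Libraries held 18719212 to 24595383 expected counts. Levels are in CPM (counts scaled to a common library size, with TMM factors) and differences are log2 fold changes with standard errors (SE) from edgeR's quasi-likelihood fit over 19820 genes. Genes with a p under 0.05 after Benjamini-Hochberg adjustment over all of them are referred to as called. A change is one of share within a library, and since RNA-seq was not used here, mRNA abundance and translation cannot be told apart. In bulk lysates, fewer cells with a transcript and fewer footprints per cell cannot be told apart. Of the epithelial markers KRT18 (108 to 121 CPM) and KRT8 (32.4 to 44.5 CPM) were read in every library, CDH1 (5.24 to 8.58 CPM) and EPCAM (3.28 to 5.35 CPM) were low and KRT19 had at most 1 count, while VIM, a mesenchymal marker on the same list, had 875 to 997 CPM. The 8 epithelial and kidney markers summed to 1040 to 1070 CPM in the WT dishes, 1130 to 1170 in those of G245S and 1090 to 1100 in those of R273H, most of it from VIM, which averaged 884 CPM in WT, 983 in G245S and 912 in R273H. Of the 6 markers of other cell types, HBB was at 0 and PTPRC, PECAM1 and ALB had at most 3 counts; their sum was 31.3 to 34.8 CPM for WT, 25.8 to 30.7 for G245S and 27.4 to 29.9 for R273H, nearly all of it from COL1A1 (25 to 34 CPM). Of the 8 epithelial and kidney markers 7 were tested, and 2 were called higher in G245S and 3 in R273H, none lower. Of all genes, 12.6% and 14.2% were called higher. LHX1, a kidney marker, was called in both (log2 fold change 0.51 and 0.64), VIM in G245S (0.15), and KRT8 (0.36) and PAX2 (0.35) in R273H. COL1A1 was called lower in both (-0.21 and -0.24). The part of these differences in the results below was not tested.

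PHLDA3, the p53 target that restrains AKT, was by far the most occupied member in WT cells and fell far below that level in both mutants. Its expected counts in the WT dishes were 1138, 1028 and 1016, against 120, 107 and 111 in the G245S dishes and 113, 96 and 115 in the R273H dishes. Every WT dish was thus far above every mutant dish. WT dishes averaged 54.8 ± 1.5 CPM (SD, n = 3 dishes), those of G245S 5.71 ± 0.700 and those of R273H 4.48 ± 0.548. The log2 fold change was -3.27 (SE 0.0781) in G245S and -3.61 (SE 0.0780) in R273H, a level 9.64-fold and 12.2-fold lower, in contrasts where 12.1% and 14.6% of all genes were called lower. Counted from the lowest log2 fold change of the 19820 genes, PHLDA3 ranked 20th in G245S and 13th in R273H. In WT it stood at the 79.3rd percentile of footprint level over all genes tested, and in the mutants at the 39.2nd and 35.3rd. These values chose the gene and are a description.

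**Figure D1:**
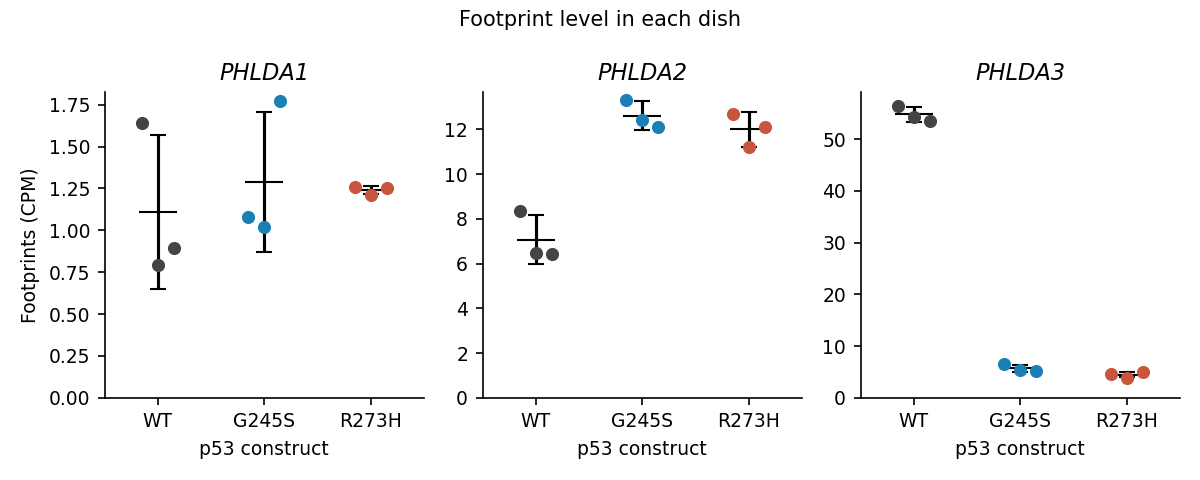
Footprint level (CPM, linear axes from 0) of PHLDA1, PHLDA2 and PHLDA3 in each of 9 dishes, by p53 construct. Points are dishes 1 to 3 from left to right, and the bar and whiskers are the group mean ± SD. PHLDA3 went from 54.8 CPM to 5.71 and 4.48 CPM, PHLDA2 rose from 7.07 to 12.6 and 12.0 CPM with no overlap between WT and mutant dishes, and PHLDA1 stayed between 0.793 and 1.77 CPM with overlapping groups.

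PHLDA2, the imprinted paralog, changed in the opposite direction. Its expected counts were 168, 122 and 122 in WT, 246, 243 and 259 in G245S, and 313, 276 and 281 in R273H. No WT dish reached the lowest mutant dish, and WT dish 1 stood above the other WT dishes. The mean level rose from 7.07 ± 1.10 CPM (SD, n = 3 dishes) to 12.6 ± 0.652 with G245S and 12.0 ± 0.789 with R273H. The log2 fold change was 0.83 in G245S (SE 0.104, edgeR adjusted p 6.61e-07) and 0.76 in R273H (SE 0.102, edgeR adjusted p 1.6e-06), or 1.77-fold (95% interval 1.53 to 2.06) and 1.69-fold (1.46 to 1.96). For comparison, 12.6% of all genes tested were called higher in G245S and 14.2% in R273H. CPM ranges of WT and mutant did not overlap for 37.4% and 41.2% of genes. PHLDA2 ranked 300th and 485th from the highest log2 fold change. Leaving out each dish in turn gave 0.76 to 0.96 in G245S and 0.69 to 0.90 in R273H, and it was called every time.

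PHLDA1, the growth factor- and stress-induced paralog, was barely occupied in any group. Its expected counts were 33, 15 and 17 in WT, 20, 20 and 38 in G245S, and 31, 30 and 29 in R273H. The groups overlapped, since WT dish 1 lay above the R273H dishes and 2 of the G245S dishes. WT averaged 1.11 ± 0.461 CPM (SD, n = 3 dishes), G245S 1.29 ± 0.419 and R273H 1.24 ± 0.0249. The log2 fold change was 0.22 in G245S (SE 0.296, edgeR adjusted p 0.642) and 0.15 in R273H (SE 0.290, edgeR adjusted p 0.745), so no difference was detectable at this depth. The 95% interval was 0.766 to 1.78-fold in G245S and 0.736 to 1.68-fold in R273H. Both intervals end well above the 0.104-fold and 0.0816-fold levels of PHLDA3. The sign was decided by single dishes: without G245S dish 3 it was -0.085 in G245S, and without WT dish 2 it was -0.039 in R273H.

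Neither paralog therefore shared the fall of PHLDA3: 1 of them was called, and in the opposite direction, in contrasts where 24.7% (G245S) and 28.8% (R273H) of all genes were called. PHLDA1, which shares the run of 28 bases with PHLDA3, had 15 to 33 counts in the WT dishes, where PHLDA3 had 1016 to 1138, and 20 to 38 in the mutant dishes, where PHLDA3 had 96 to 120.

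**Figure D2:**
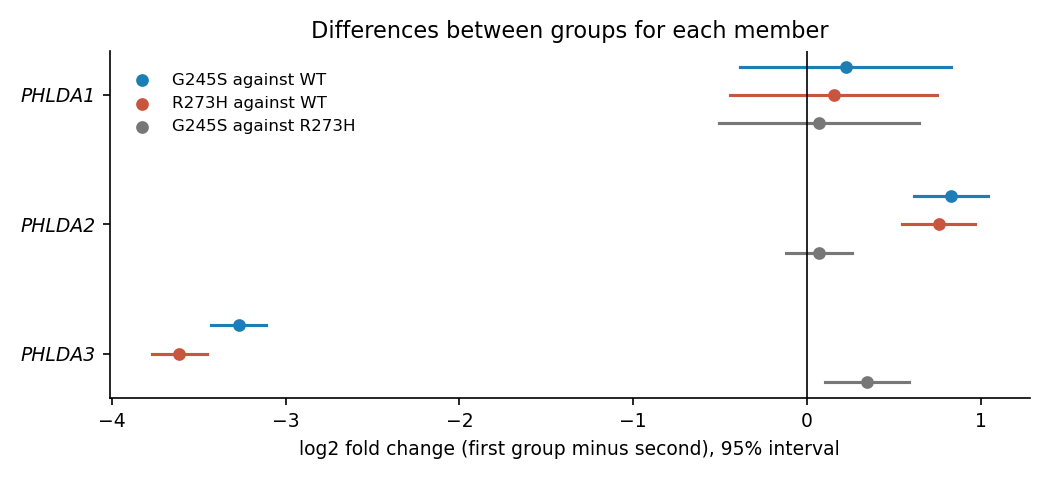
Log2 fold change of each member in the 3 contrasts, as first group minus second, with 95% intervals from the edgeR fit (n = 3 dishes per group). Values of PHLDA3 against WT (-3.27 and -3.61) chose the gene. All 3 contrasts of PHLDA3 are shown as a description, and their intervals are not a test. PHLDA2 lies to the right of 0 against WT (0.83 and 0.76) and the intervals of PHLDA1 span 0.

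The mutants were then compared with each other, a contrast that does not involve the WT libraries. The PHLDA3 dishes were at 6.50, 5.44 and 5.18 CPM in G245S and at 4.59, 3.88 and 4.96 CPM in R273H. The ranges did not overlap, as was the case for 21.5% of all genes in this contrast. The log2 fold change was 0.35 (SE 0.118). The mutant libraries also entered the values that chose PHLDA3, so this is a description with no test. PHLDA2 (0.07, SE 0.0921, 95% interval -0.12 to 0.26, edgeR adjusted p 0.786) and PHLDA1 (0.07, SE 0.281, 95% interval -0.51 to 0.65, edgeR adjusted p 0.942) were not called. Of all genes, 2.59% were called between the mutants, 1.86% as higher and 0.732% as lower in G245S.

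Levels of different genes are compared per length, here as CPM per kb of coding region. In WT, PHLDA3 had 144 ± 3.94 CPM per coding kb (SD, n = 3 dishes), PHLDA2 15.5 ± 2.40 and PHLDA1 0.922 ± 0.383, and the order PHLDA3, PHLDA2, PHLDA1 held in every WT dish. In the mutants PHLDA2 came first. It had 27.6 ± 1.43 CPM per coding kb in G245S and 26.3 ± 1.73 in R273H, against 15 ± 1.84 and 11.8 ± 1.44 for PHLDA3 and 1.07 ± 0.349 and 1.03 ± 0.0207 for PHLDA1. This order held in all 6 mutant dishes. The ratio of PHLDA3 to PHLDA2 per coding kb was 8.09, 10.1 and 10.0 in the WT dishes, 0.586, 0.528 and 0.513 in the G245S dishes, and 0.434, 0.416 and 0.489 in the R273H dishes. Of the family's summed footprints per coding kb, PHLDA3 made up 89.8% ± 1.29 in WT, 34.2% ± 1.76 in G245S and 30.0% ± 1.81 in R273H. PHLDA2 made up 9.65% ± 1.08, 63.3% ± 1.19 and 67.4% ± 1.71. Per kb of whole transcript PHLDA1 and PHLDA3 stand lower relative to PHLDA2, since their transcripts of 5913 and 2749 nt are mostly noncoding.

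**Figure D3:**
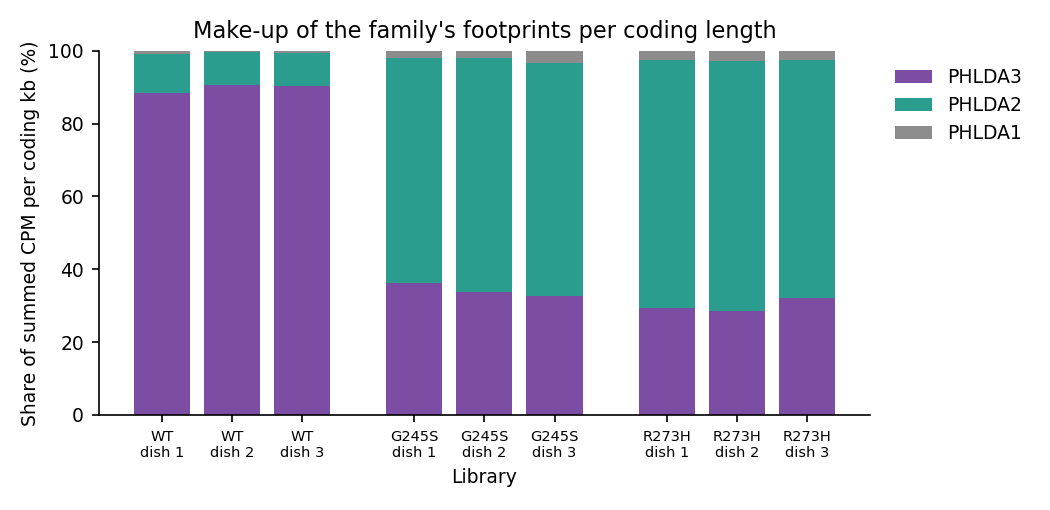
Share (%) of the 3 members in the summed CPM per coding kb of the family, in each of 9 libraries, as stacked bars. PHLDA3 makes up 88.3% to 90.6% in the WT dishes and 28.6% to 36.2% in the mutant dishes, where PHLDA2 takes 61.9% to 68.6%.

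The genes most like each member were then found by the Pearson correlation of log2 CPM over the 9 libraries, restricted to genes whose count averaged 100 or more. These libraries share pools and fall into WT and mutant clusters. For PHLDA2 and PHLDA3, r tends to be high for genes that moved the same way against WT, well beyond their dish spread. This holds whatever the size of the difference, so r is given as a description. For PHLDA3 the closest of 12655 genes were AEN (r = 0.9985), CST3 (0.9975), BTG2 (0.9973), ANKRA2 (0.9967) and TP53I3 (0.9965), and 825 genes (6.52%) had an r over 0.9. AEN (an apoptosis-enhancing nuclease), BTG2 (an antiproliferative factor) and TP53I3 (a quinone oxidoreductase) are known p53 targets, while CST3 encodes the protease inhibitor cystatin C. Their log2 fold changes in G245S and R273H were -1.33 and -1.42 for AEN, -0.51 and -0.55 for CST3, -1.74 and -1.95 for BTG2, -1.55 and -1.66 for ANKRA2, and -4.03 and -4.19 for TP53I3. For PHLDA2 the closest were PES1 (0.9890), MEX3A (0.9874), RAI1 (0.9850), DLL1 (0.9843) and MYBL2 (0.9840), and 498 genes (3.94%) had an r over 0.9. Among these DLL1, a ligand of Notch receptors, rose about as much as PHLDA2 (0.91 in G245S, edgeR adjusted p 3.82e-06, and 0.83 in R273H), whereas PES1 and MYBL2 rose by 0.11 and 0.15 in G245S. For PHLDA1, with few counts, the closest genes GRAMD1B (0.9123), TSPAN33 (0.9068), UNC119B (0.8939), PHIP (0.8848) and SF3A3P2 (0.8809) were not called against WT.

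Genes next to the members on the chromosome were examined for the same movement. For comparison, 12.6% and 14.2% of all genes tested were called higher in G245S and R273H, and 12.1% and 14.6% lower. Within 250 kb of the start of PHLDA3, 3 genes were tested and none was called lower, too few to set apart from these shares. NAV1, 69.9 kb away, was higher in both mutants (0.45 and 0.42). CSRP1, 40.2 kb away and with a mean count of 9.78, was called higher in R273H (1.41, edgeR adjusted p 0.0445). In G245S its log2 fold change was similar but not called (1.19, edgeR adjusted p 0.119). RPS10P7, a pseudogene 49.5 kb away, was called in neither. Near PHLDA1, NAP1L1 was called higher in both (0.16 and 0.13) and a pseudogene, ENSG00000257941, in neither. Near PHLDA2, 6 genes were tested, of which CARS1 (a cysteinyl-tRNA synthetase) was called higher and NAP1L4 (a histone chaperone) lower in each mutant. NAV1 and NAP1L1, which lie beyond 50 kb, were named after their values were seen.

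PHLDA2 belongs to the imprinted domain of chromosome 11p15, of which 15 other genes were listed and 9 tested. In G245S, 2 were called higher, 2 lower and 5 not at all, and the counts were the same in R273H, so 4 of 9 were called where 24.7% and 28.8% of all genes were. The median log2 fold change was 0.03 and 0.02, against -0.0007 and -0.002 over all genes tested. CDKN1C, a maternally expressed inhibitor of cyclin-dependent kinases 43.6 kb from PHLDA2, had 6.15 ± 0.267 CPM (SD, n = 3 dishes) in WT, against 7.54 ± 0.322 with G245S and 7.42 ± 0.612 with R273H. Its log2 fold changes of 0.29 and 0.27 missed the threshold at edgeR adjusted p-values of 0.0577 and 0.0649, and passed it in 3 of 18 alternatives in G245S and 2 of 18 in R273H. SLC22A18, an organic cation transporter gene that lies between them, was not called (-0.14 and -0.20). CARS1 rose by 0.24 in each, and CD81, a tetraspanin, was called in G245S (0.11, edgeR adjusted p 0.00182) and not in R273H (0.02), except with a trend in GC content and coding length subtracted (0.10, adjusted p 0.000193). Between the mutants CD81 differed by 0.09 (edgeR adjusted p 0.0502) and was not called. TSSC4 (-0.15 and -0.24) and NAP1L4 (-0.12 and -0.08) were called lower. The NAP1L4 call in R273H (edgeR adjusted p 0.0338) was lost without WT dish 2 or 3 or R273H dish 1 or 2. It was also lost with upper-quartile scaling, with no filter on low counts and with DESeq2. The TSSC4 call in G245S was lost without WT dish 1 or G245S dish 2. IGF2, a growth factor gene with a mean count of 32.1, was called higher in R273H (0.84, edgeR adjusted p 0.00576) and not in G245S (0.61, edgeR adjusted p 0.0636). IGF2 was named after its values were seen. Of the 9 genes, IGF2 was the only one whose log2 fold change exceeded that of PHLDA2 in R273H, and none exceeded it in G245S.

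PHLDA3 was set beside 35 other p53 targets, all tested. In each mutant 31 were called lower, 1 higher and 3 not called, with medians of -1.20 and -1.21, where 12.1% and 14.6% of all genes were called lower. The targets that fell further than PHLDA3 were MDM2 (-3.48), the ubiquitin ligase that degrades p53, and TP53I3 in G245S, and TP53I3 and SPATA18 (-3.70) in R273H. SPATA18, a mitochondrial quality control gene with a mean count of 65.9, was named after its values were seen. FDXR, a mitochondrial reductase, changed by -3.04 and -3.30, and CDKN1A, the cell cycle inhibitor p21, by -1.92 and -2.14. STEAP3, a metalloreductase, was the exception (0.16 and 0.16, edgeR adjusted p 0.00966 and 0.00811), and its call was lost in both without WT dish 3, and without dish 2 of the mutant concerned.

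Footprints of genes of the AKT pathway, which PHLDA3 acts on, showed no shift of that size. AKT activity itself was not measured here. Of 38 listed genes 37 were tested. In G245S 5 were called higher, 8 lower and 24 not called, with a median of 0.01, and in R273H 3 were higher, 9 lower and 25 not called, with a median of -0.04. That is 13 and 12 of 37 genes, where 24.7% and 28.8% of all genes were called. The 3 AKT kinases were not called, with log2 fold changes between -0.08 and 0.02. PIK3R3 and PIK3R2, regulatory subunits of phosphoinositide 3-kinase, fell by 0.53 and 0.32 in G245S and by 0.48 and 0.55 in R273H; the PIK3R2 call in G245S was lost without WT dish 2 or G245S dish 1. GSK3A, a kinase that AKT inhibits, fell by 0.25 and 0.30. RICTOR, a subunit of the complex that phosphorylates AKT, rose by 0.30 and 0.32 (edgeR adjusted p 0.000723 and 0.000212). PPP2R2A, a subunit of a phosphatase that acts on AKT, rose by 0.11 and 0.18. The former call was lost without WT dish 1 or 2 or G245S dish 3, with library totals and with DESeq2. TRIB3, a pseudokinase that binds AKT, was called in G245S (0.24, edgeR adjusted p 0.0397) and not in R273H (0.17), where it was called with the trend subtracted (0.23, adjusted p 0.0175). The call in G245S was lost with library totals, with DESeq2, and without WT dish 1 or 2 or G245S dish 1 or 3.

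PHLDA1 is commonly read as an output of ERK signalling, and 9 other such genes were listed, of which 6 were tested. In each mutant 1 was called higher, 1 lower and 4 not called, where 24.7% and 28.8% of all genes were called, and the median was -0.05 for G245S and 0.0003 for R273H. CCND1, which encodes cyclin D1, rose by 0.50 and 0.42 (edgeR adjusted p 4.39e-09 and 7e-08). EPHA2, a receptor tyrosine kinase, fell by 0.25 and 0.40, and its call in G245S was lost without WT dish 1 or G245S dish 3. SPRY4, DUSP6 and ETV4 had at most 13 counts in any library and were not tested.

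Genes of the PHLDB group share the name but are larger proteins. PHLDB2 was called higher in both mutants (0.30 and 0.33, edgeR adjusted p 0.00642 and 0.0018), in G245S not without WT dish 2. PHLDB3 was called lower in G245S (-0.29, edgeR adjusted p 0.0239), not without WT dish 1 or G245S dish 2 or 3, and missed the threshold in R273H (-0.23, edgeR adjusted p 0.0574), where it passed without WT dish 2, with dish number as a block (0.0362) and with the trend subtracted (0.0395). PHLDB1 was not called (0.07 and 0.02). None of the 3 differed from WT by more than 0.33 on the log2 scale in either mutant. No tested gene of the AKT, ERK, 11p15 or PHLDB lists was called between the mutants, where 2.59% of all genes were called. Of the 35 p53 targets, 2 were called higher in G245S than in R273H and none lower, where 1.86% of all genes were called higher.

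**Figure D4:**
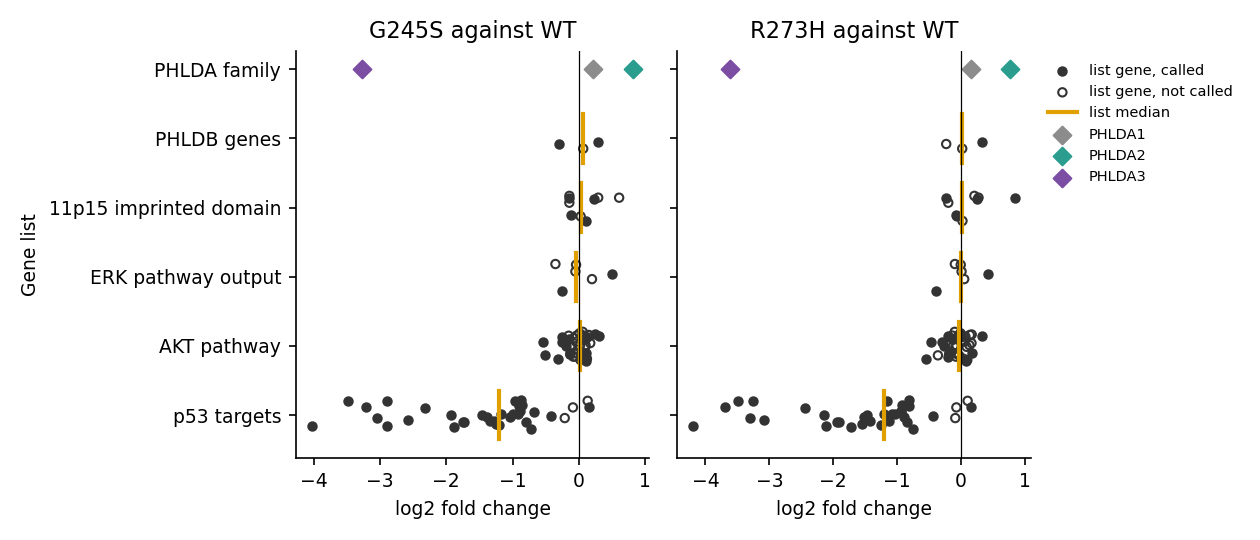
Log2 fold change against WT of the 3 PHLDA genes (diamonds) and of the genes of 5 lists (circles, filled where called at an adjusted p under 0.05; yellow lines are list medians), in G245S and R273H. PHLDA3 lies among the p53 targets that fell most, whereas PHLDA2 (0.83 and 0.76) lies to the right of every AKT, ERK, PHLDB and p53 target gene shown.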

How the data were processed

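Footprint libraries from 9 dishes (WT, G245S and R273H p53, n = 3 each) were analysed. Per the labels and methods, the authors trimmed reads (Trim Galore, cutadapt), used UMI-tools where applicable, removed rRNA reads (SortMeRNA) and aligned them to GRCh38 (STAR). The deposited values are expected counts per gene, not scaled; the counting tool, annotation release, strand handling and any length filter are not given in the sources used here, so overlapping genes are uncertain. Of 63241 gene identifiers, 99.1% matched GENCODE v44. Counts were rounded and fitted in edgeR 4.0.16 (R 4.3.3; TMM, filterByExpr, robust glmQLFit, two-sided glmQLFTest) in a single model of the 9 libraries that contained group alone (6 residual degrees of freedom), which was tested on simulated data. The biological coefficient of variation was 2.58%. Depth was 18719212 to 24595383 counts per dish. Coding lengths are of the Ensembl canonical transcript. Alternatives used DESeq2 1.42.0, limma 3.58.1, other scalings, no filter, 6 libraries, a dish block, subtraction of a trend fitted on GC content and coding length, and each dish left out. Alignments used Biopython 1.88 (match 2, mismatch -3, gap -5 and -2).

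The family, the gene lists and the tests were chosen with earlier results of these data known. Named in addition to the members were, per list, up to 3 genes called in each direction with the largest mean difference and a mean count of at least 100, some genes whatever their values (CDKN1A, MDM2, the AKT kinases, CDKN1C, NAP1L4, SLC22A18 and the PHLDB genes), the 5 genes most correlated with each member, and tested neighbours within 50 kb. Protein sequences were not used here.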

Additional observations from a re-analysis of the deposited data

How the results depend on the processing

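PHLDA2 kept its direction and its call against WT under all 18 alternatives in each mutant (0.76 to 0.96 in G245S, 0.695 to 0.907 in R273H), and PHLDA3 kept its direction (-3.36 to -3.20 and -3.69 to -3.45). The latter -3.45 came from subtracting a trend fitted on GC content and coding length, which alone was -0.16 for PHLDA3 and -0.15 for PHLDA2 in R273H. Subtracting it also took PHLDA2 between the mutants to -0.028. PHLDA3 between the mutants ran from 0.25 to 0.42. PHLDA1 was called under none, and over the fits that left out a dish it ran from -0.085 to 0.62 in G245S, -0.039 to 0.55 in R273H and -0.24 to 0.22 between the mutants. Over the same fits AKT1 in G245S ran from -0.039 to 0.058, AKT2 in R273H from -0.0892 to 0.0251 and PHLDB1 in R273H from -0.016 to 0.041. Scaled by library totals only, AKT1 in G245S was -0.00166 and the AKT pathway median -0.00749. The other scalings moved the median of all genes by at most 0.02. Per kb of transcript, PHLDA1 had 0.188, 0.218 and 0.21 CPM in WT, G245S and R273H, PHLDA2 7.69, 13.7 and 13.0, and PHLDA3 19.9, 2.08 and 1.63. Of 50 results for other named genes, 18 changed call or direction under some alternative; DESeq2 did not call TRIB3, PPP2R2A, EPHA2, TSSC4 and PHLDB3 in G245S, nor NAP1L4 in R273H. Genes called between the mutants were 162 to 712 without a dish, with 162, 204, 222, 233 and 295 without G245S dish 1, G245S dish 2, and R273H dishes 1, 2 and 3, against 513 with all dishes.

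Deviations of same-numbered dishes from their group means correlated at 0.042 to 0.23 over 12656 genes, not all over 0.1. Dishes of different number correlated at -0.183 to 0.0581. The own number was the best match in 17 of 18 comparisons, so same-numbered dishes tended to be more alike than others. What they shared is not given in the sources used here, and the main fit contained group alone. With dish number as a replicate block, 1262 genes were called between the mutants in place of 513, no call of PHLDA1 or PHLDA2 changed, and CDKN1C in G245S (adjusted p 0.0455) and PHLDB3 in R273H (0.0362) became called. The causes of these changes were not tested. Depth limits PHLDA1, at 15 to 38 counts a dish.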
